A study of Rattus norvegicus with 8 samples.

Results

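Transcripts of nerve, myelin and neuroendocrine cells were followed in the 2 layers of rat extraocular muscle, the striated muscle that moves the eye. They were 8 genes: Mbp, Pmp22, Cnp and Egr2 of myelinating Schwann cells, the neurofilament genes Nefl and Nefm, the secretory chaperone gene Scg5, and Uchl1, a ubiquitin hydrolase gene of neurons and endocrine cells. Every probe set annotated to exactly 1 of these symbols was taken, which gave 13 probe sets of the 15866 on the array that are not controls, for 8 of 10411 singly named genes. Samples were laser-microdissected pieces of adult rat extraocular muscle, 4 captures of the global layer, which faces the globe, and 4 of the orbital layer, which faces the bone. Each was amplified and hybridised to 1 RAE230A array. The labels name no strain, sex or treatment and do not tie captures to animals, so the p-values measure the spread between captures and are too small if captures share an animal. A capture holds muscle fibres with the nerve branches, vessels and connective tissue between them, and in such bulk samples fewer cells of a type and less RNA per cell cannot be told apart.

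Motor and sensory axons run through muscle in small nerve branches. Their myelin is made by Schwann cells, in which the zinc finger factor Egr2 (Krox20) switches on the genes of the myelin sheath. Mbp and Pmp22 are proteins of compact myelin, and Cnp is a phosphodiesterase of myelin-forming cells that other cells also express at lower levels. Neurofilament subunits fill the axon, but most of their mRNA lies in the neuron's cell body, outside the muscle. Scg5 (7B2) is the chaperone of prohormone convertase 2 in the regulated secretory pathway. Egr2 is also an immediate early gene of other cell types.

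The muscle identity of the captures was clear, since all 19 of 19 defining skeletal muscle genes on the array passed the intensity filter, with a summed intensity of 104711 to 159846 in the global and 89351 to 131163 in the orbital captures. The median intensity of an array was 58.8 to 66.3. The highest Bacillus subtilis control probe set, used as the background level of each array, was between 17.7 and 41.5. Gapdh signal of the 3′ probe set over that of the 5′ one, a sign of RNA shortening, was 5.35 to 6.47 in the global captures and in orbital captures 1 and 2, and was higher in orbital capture 3 (12.9) and orbital capture 4 (8.64). Photoreceptor genes gave signal in captures of both layers.

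Of the 8 member genes, 3 were higher in the orbital layer (Scg5, Cnp and Nefm), 0 were lower, 3 were measured without passing the test (Mbp, Pmp22 and Egr2), and 2 lay below the intensity filter (Nefl and Uchl1). At an unadjusted p under 0.05 no member was lower either (0). In limma, across all genes tested by their brightest probe set, 7.68% passed (adjusted p under 0.05), with 4.09% of genes higher and 3.59% lower on the orbital side. Over the 9520 probe sets these shares were 7.41%, 3.91% and 3.5%. The 6 members that passed the filter all had a positive log2 difference, with a median of 1.003, against a median of 0.02 over 7163 genes, of which 53.2% were positive. For 2 of the 6, Scg5 and Cnp, every orbital capture lay above every global capture, which held for 7.48% of all genes tested. The members were chosen with earlier results of these data known, so these comparisons describe the genes and are no test of the group. Without orbital capture 3 the count of higher members fell to 1.

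**Figure D1:**
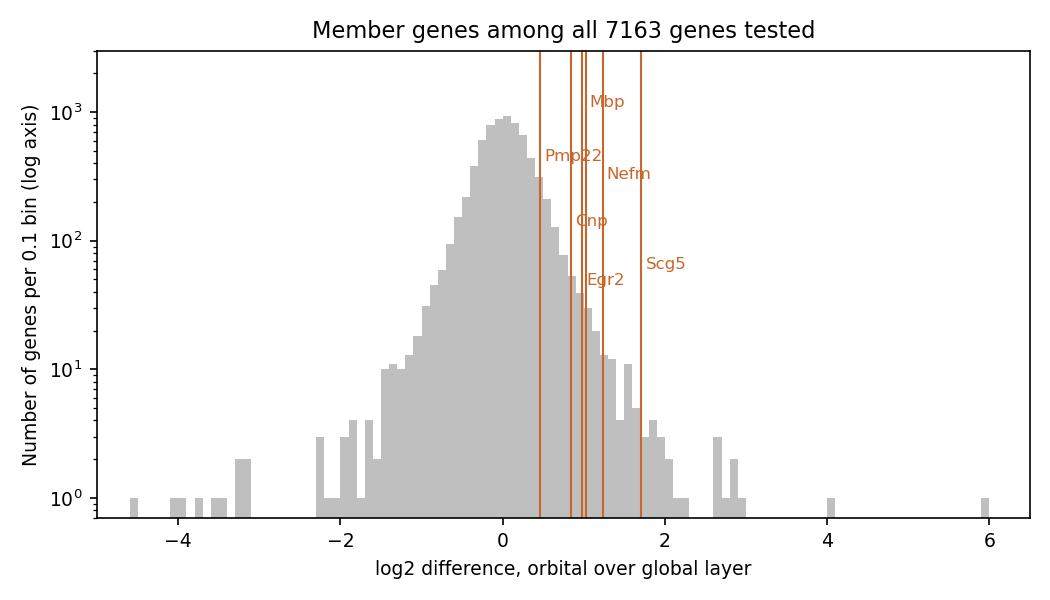
The histogram shows the log2 difference, orbital over global layer, of all 7163 genes tested (horizontal axis) by the number of genes per bin (vertical axis, log scale), and the vertical lines mark the 6 member genes that were tested. All 6 lines lie to the right of the median of all genes (0.02), from Pmp22 at 0.46 to Scg5 at 1.71. The genes were chosen with earlier results of these data known.

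Scg5 gave the clearest layer difference of these genes. Its intensity was 119, 89.5, 109 and 76.0 in global captures 1 to 4, and 341, 322, 320 and 297 in orbital captures 1 to 4. The captures of a layer lay close together, and the layers were far apart. The means were 98.35 ± 19.2 (SD, n = 4) in the global and 320.0 ± 17.9 in the orbital layer, a log2 difference of 1.71 ± 0.16 (SE; limma adjusted p = 4.44e-05) with a 95% interval of 1.37 to 2.05. By its p it stood at place 14 among 9520 probe sets tested. The call held within each of the title prefixes that divide the captures into 2 sets of 4, with a difference of 1.68 (adjusted p = 0.0144) in one and 1.75 (adjusted p = 0.00804) in the other, and in all 23 alternatives run, between 1.25 and 1.81.

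Other genes of the regulated secretory pathway ranged from silent to bright. Pcsk2, the convertase that Scg5 chaperones, was under the background level in 8 of 8 captures, with an intensity of 0.6 to 4.5. Chga, the chromogranin that defines neuroendocrine granules, was also under it in 8 of 8 (1.1 to 3.4). Others, also below the filter, were above the background level in most captures. Scg3 was under it in 1 of 8 (up to 118.4), Chgb in 2 of 8 (up to 86.7), Vip in 2 of 8 (up to 55.3) and Scg2 in 3 of 8 (up to 34.3). Of the 10 secretory granule genes tested, 1 fell, 0 rose and 9 did not pass, with a median of -0.17, and at the share of 4.09% of all genes a count of 0 is no result about them. The gene that fell was Sort1, a sorting receptor that many cells use, with 536 ± 104 (SD, n = 4) in the global and 280.4 ± 28.8 in the orbital layer (-0.91 ± 0.16, SE; limma adjusted p = 0.00298). Cpe, the carboxypeptidase of peptide processing, was bright in both layers and differed by 0.20 (adjusted p = 0.46), Pam, which amidates peptides, by 0.67 (adjusted p = 0.0657), and Penk, the enkephalin precursor, by 0.60 (adjusted p = 0.0855).

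Nefm, the medium neurofilament chain, was higher in the orbital layer with overlap between the layers. It read 53.4, 111, 164 and 56.5 in global captures 1 to 4, and 238, 224, 223 and 145 in orbital captures 1 to 4. Global capture 3 lay above orbital capture 4, and the other 3 global captures below all orbital ones. The means were 96.0 ± 52.1 (SD, n = 4) and 207 ± 42.1, a log2 difference of 1.23 ± 0.31 (SE; limma adjusted p = 0.0291). Leaving out any 1 of global captures 1 and 4 and orbital captures 1, 2 and 3 ended the call (adjusted p 0.0718 to 0.0829), as did testing without the intensity filter (0.0554).

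The light chain Nefl was near background and its probe sets disagreed. Probe set 1370058_at read 6.9 to 9.5 in the 4 global captures and 35.3, 31.8, 60.5 and 8.3 in orbital captures 1 to 4. It was under the background level in 4 of 4 global captures and in orbital capture 4, so 3 orbital captures held signal and the fourth did not. Its log2 difference in the fit without the filter was 1.69 ± 0.55 (SE; limma adjusted p = 0.129), which did not pass. The other probe set, 1370059_at, read 14.0 to 29.3 in the global and 14.4 to 29.9 in the orbital captures and differed by 0.14. Orbital capture 4 was thus the lowest orbital capture for Nefm as well as for Nefl 1370058_at.

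Axonal and nerve terminal genes from a wider list spanned bright and dim signals. Of 44 listed, 36 were on the array under 1 name and 20 passed the filter, of which 1 rose, 1 fell and 18 did not pass, with a median of 0.25. These counts are near the shares of all genes (4.09% and 3.59%) and are no result about the list. Map2, a microtubule protein known from dendrites, rose, with a global mean of 97.9 ± 51.2 (SD, n = 4) and an orbital mean of 323 ± 108 (1.77 ± 0.32, SE; limma adjusted p = 0.00391), and it too was lowest among orbital captures in capture 4, at 188. Sncg, gamma synuclein, fell from 233 ± 55.3 to 130.2 ± 31.4 (-0.84 ± 0.21; limma adjusted p = 0.0253), a call that ended without any 1 of global captures 1, 2 and 4 and orbital captures 1, 3 and 4 (0.0505 to 0.0758). Gap43, a growth cone protein, differed by 0.70 (adjusted p = 0.125). The genes that define cholinergic terminals gave little signal, with Chat under the background level in 7 of 8 captures and the vesicular transporter Slc18a3 in 8 of 8. The heavy neurofilament chain Nefh was under it in 6 of 8. The neuronal tubulin Tubb3 was under it in 0 of 8, and tyrosine hydroxylase, Th, of sympathetic axons in 1 of 8. Both were dim, at 26.7 to 44.1 and 26.5 to 53.9, and lay below the filter.

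Uchl1, abundant in neurons, was under the background level in 7 of 8 captures, at 1.7 to 4.1. The exception was orbital capture 4, at 23.3 against a background of 17.7 on that array. No level or layer difference of Uchl1 can be given from this probe set.

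**Figure D2:**
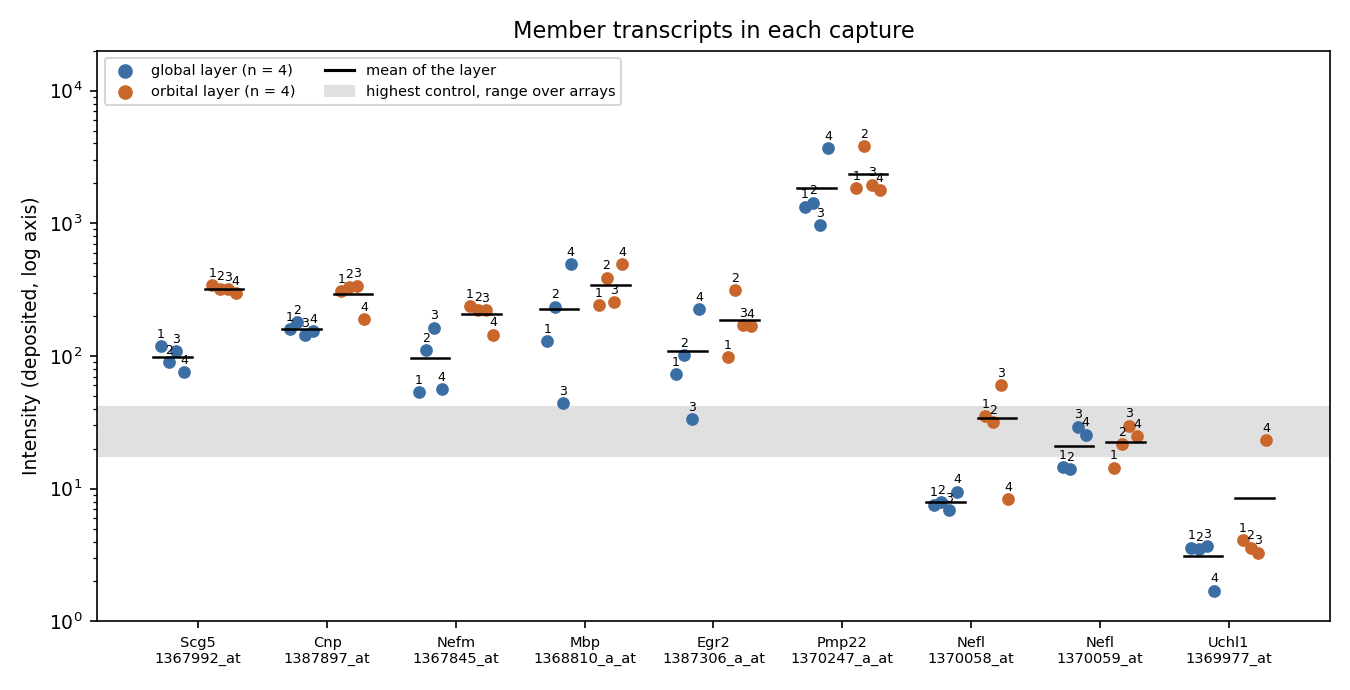
Points show the deposited intensity (vertical axis, log scale) of the brightest probe set of 6 member genes and of all probe sets of Nefl and Uchl1 in each capture, numbered 1 to 4 within its layer, with the layer mean as a bar and the range of the background level over arrays as a grey band. Scg5 and Cnp do not overlap between layers, while Mbp, Egr2 and Pmp22 spread widely within each layer and Uchl1 lies under the band except in orbital capture 4.

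Among the Schwann cell genes, Cnp differed between layers. Its brighter probe set, 1387897_at, read 160, 181, 143 and 153 in global captures 1 to 4, and 309, 333, 340 and 189 in orbital captures 1 to 4. Orbital capture 4 lay just above the highest global capture and far below the other orbital ones. The means were 159 ± 15.7 (SD, n = 4) and 292 ± 70.5, a log2 difference of 0.84 ± 0.19 (SE; limma adjusted p = 0.0140). Without orbital capture 3, which had the highest Gapdh 3′ to 5′ ratio, the difference was 0.76 and did not pass (adjusted p = 0.0512). Without orbital capture 4, which had the next highest, it was 1.04 (adjusted p = 0.00123). A second probe set, 1370693_a_at, was under the background level in 6 of 8 captures and differed by 0.35 in the fit without the filter.

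Mbp, Pmp22 and Egr2 varied more within a layer than between layers. Mbp, the basic protein of compact myelin, read 130, 236, 44.2 and 492 in global captures 1 to 4, and 241, 390, 255 and 490.1 in orbital captures 1 to 4. Global capture 3 was the lowest of all and global capture 4 the highest, so the global range enclosed the orbital one. The log2 difference was 1.02 ± 0.53 (SE; limma adjusted p = 0.294), with a 95% interval of -0.13 to 2.17. It was 0.41 without global capture 3 and 1.56 without global capture 4 (adjusted p = 0.0606). A second Mbp probe set was under the background level in 8 of 8 captures.

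Pmp22, peripheral myelin protein 22, which fibroblasts also express, read 1340, 1430.4, 964 and 3674 in global captures 1 to 4. In orbital captures 1 to 4 it read 1832, 3840.3, 1961 and 1769. Global capture 4 and orbital capture 2 were about alike and well above the other 6. The log2 difference was 0.46 ± 0.35 (SE; limma adjusted p = 0.493; 95% interval -0.29 to 1.21). It was 0.20 without orbital capture 2, 0.21 without global capture 3 and 0.86 without global capture 4 (adjusted p = 0.0693). A dimmer probe set, 1370504_a_at, differed by 0.24 ± 0.26 (adjusted p = 0.668). It read 37.4, 46.1, 89.5 and 48.0 in global captures 1 to 4, and 66.6, 64.8, 64.2 and 52.1 in orbital captures 1 to 4. It was thus highest in global capture 3, where the brighter probe set was lowest. Nor did it stand out in global capture 4 or orbital capture 2, so the 2 probe sets disagreed from capture to capture.

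Egr2, the factor that drives myelin genes, read 73.0, 101, 33.3 and 227 in global captures 1 to 4, and 97.7, 312, 171 and 168 in orbital captures 1 to 4. Again global capture 3 was the lowest, and orbital capture 2 and global capture 4 were the highest. The log2 difference was 0.98 ± 0.47 (SE; limma adjusted p = 0.245; 95% interval -0.03 to 1.99). It was 0.53 without global capture 3 and 1.44 without global capture 4 (adjusted p = 0.0522). The other Egr2 probe set was under the background level in 5 of 8 captures and differed by -0.17 in the fit without the filter. For all 3 of these genes the interval of the layer difference includes 0 and also a doubling in the orbital layer, so neither is decided by these captures.

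**Figure D3:**
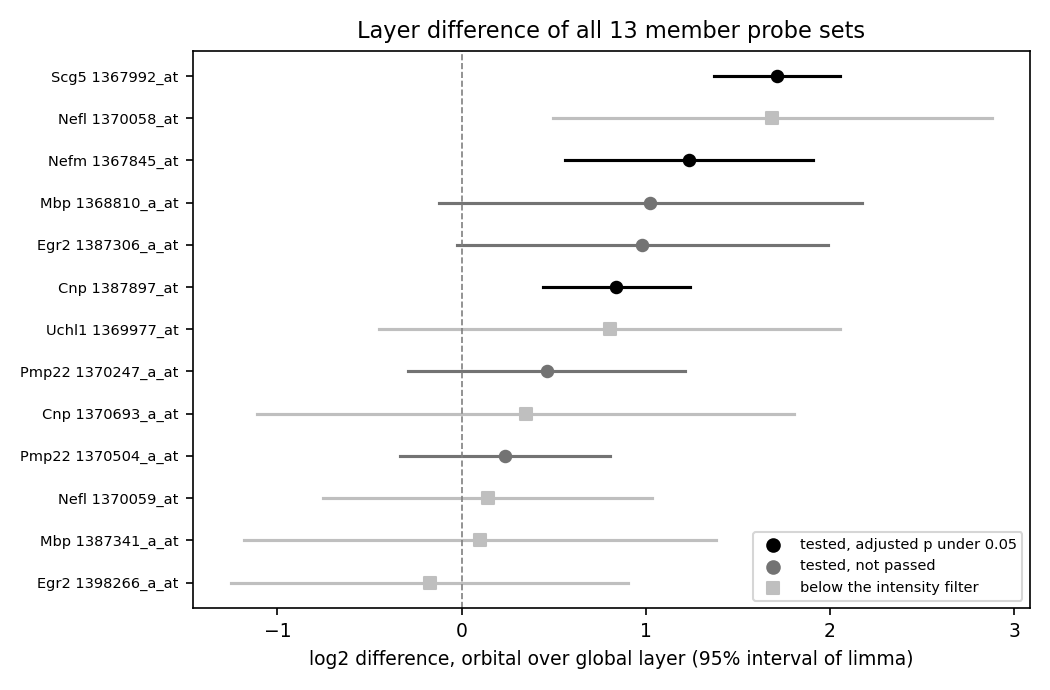
Each symbol is the log2 difference, orbital over global layer, of 1 of the 13 member probe sets (rows) with its 95% interval from limma (n = 4 captures per layer). Scg5, Nefm and Cnp (black) passed at an adjusted p under 0.05, and the intervals of Mbp, Egr2 and both Pmp22 probe sets include 0.

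The correlation across captures shows which transcripts moved together from piece to piece. Each gene entered by its brightest probe set, so all correlations of Pmp22 are those of its brighter probe set, whose pattern the dimmer one did not share. Layer means were subtracted first, so that a shared layer difference adds nothing, and all 28 pairs of the 8 genes were compared over 8 captures by exact permutation within layers (two-sided, smallest possible p = 0.00174), with the caveat that the captures may not be independent. Pmp22 and Egr2 gave r = 0.92 and rho = 0.93 (exact permutation p = 0.00521; 0.146 after Benjamini-Hochberg adjustment), and r was 0.86 without the 2 captures farthest from the median of Pmp22. Mbp and Egr2 gave r = 0.90 and rho = 0.79 (exact permutation p = 0.0208; 0.292 adjusted), and 0.59 without the 2 farthest captures. Mbp and Pmp22 gave r = 0.76 and rho = 0.60 (exact permutation p = 0.0799; 0.551 adjusted), and 0.20 without the 2 farthest, so that relation rests on those captures, global 3 and global 4. No pair (0 of 28) passed after adjustment, and 2 had an unadjusted p under 0.05. A pair alone could pass only at the smallest possible p, so the adjusted test had little power to find a relation. With layer means left in, r was 0.92 for both Pmp22 with Egr2 and Mbp with Egr2 (adjusted p = 0.0188 for each, exact permutation of all captures), and these 2 pairs passed.

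Photoreceptor genes, a sign of retinal RNA in a capture, were set beside the nerve genes because neurons share transcripts with them. Of 14 genes tested from a list of photoreceptor and retina genes, 13 did not pass and 1 rose between layers. It was Guca1a, a guanylate cyclase activator of photoreceptors (2.05 ± 0.21, SE; limma adjusted p = 0.000101). The summed intensity of the 14 was 3035 to 5891 in the global and 5503 to 8742 in the orbital captures. A large part of these sums was Cryab, at 1933 to 3130. It read 2229 and 1933 in global captures 2 and 3, where Sag was lowest, so the sums do not measure retinal RNA. Sag, rod arrestin, read 345, 2.2, 13.2 and 389 in global captures 1 to 4, and 138, 802, 166 and 467 in orbital captures 1 to 4. Its r was 0.49 with Egr2, 0.57 with Pmp22 and 0.39 with Mbp (exact permutation p = 0.399, 0.234 and 0.53). Some genes of this list had a higher r with these 3 members. Within layers, 4 of 14 had an r over 0.7 with Pmp22, 3 with Egr2 and 1 with Mbp (medians 0.58, 0.52 and 0.38). The shares of all genes were 5.85%, 6.84% and 6.09%. Those counted were Gnb1, Guca1b and Cryab for both Pmp22 and Egr2, and Pde6g for Pmp22 alone. Cryab, which was bright also where Sag was lowest, gave r = 0.80 and 0.79 (exact permutation p = 0.0521 and 0.0556). The rest of the list ran from 0.07 (Pcp2) to 0.66 (Unc119) with Pmp22, and from -0.01 (Pcp2) to 0.66 (Guca1a) with Egr2. Guca1a gave r = 0.89 and rho = 0.83 with Mbp (exact permutation p = 0.0156), and Gnb1, a G protein subunit that other cells share, 0.79 with both Pmp22 and Egr2 (exact permutation p = 0.0243 and 0.0434). Guca1a also went with the layers, at 341, 357, 208 and 450.3 in global captures 1 to 4, and 1448, 1358, 1028 and 1664 in orbital captures 1 to 4. It did not follow Sag closely. In global capture 2 it held signal where Sag read 2.2. In orbital captures 1 and 3 it was above every global capture, while Sag was below global captures 1 and 4. With Scg5, Guca1a gave a pooled r of 0.89 and -0.59 within layers. The part of retinal RNA in the results for Scg5, Mbp, Pmp22, Egr2 and the other members was not tested.

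The members that were higher in the orbital layer gave low correlations with each other within layers. With layer means subtracted, r was 0.27 for Nefm with Scg5, 0.13 for Cnp with Scg5 and 0.31 for Cnp with Nefm (exact permutation p = 0.578, 0.604 and 0.286). The pooled r of the same pairs, 0.79, 0.85 and 0.76, carries the difference between layers. Cnp and Mbp, both genes of myelin-forming cells, gave r = -0.07 within layers (exact permutation p = 0.755). Scg5 ran against Mbp and Egr2, with r = -0.82 and -0.74 (exact permutation p = 0.102 and 0.118; 0.551 adjusted for each).

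**Figure D4:**
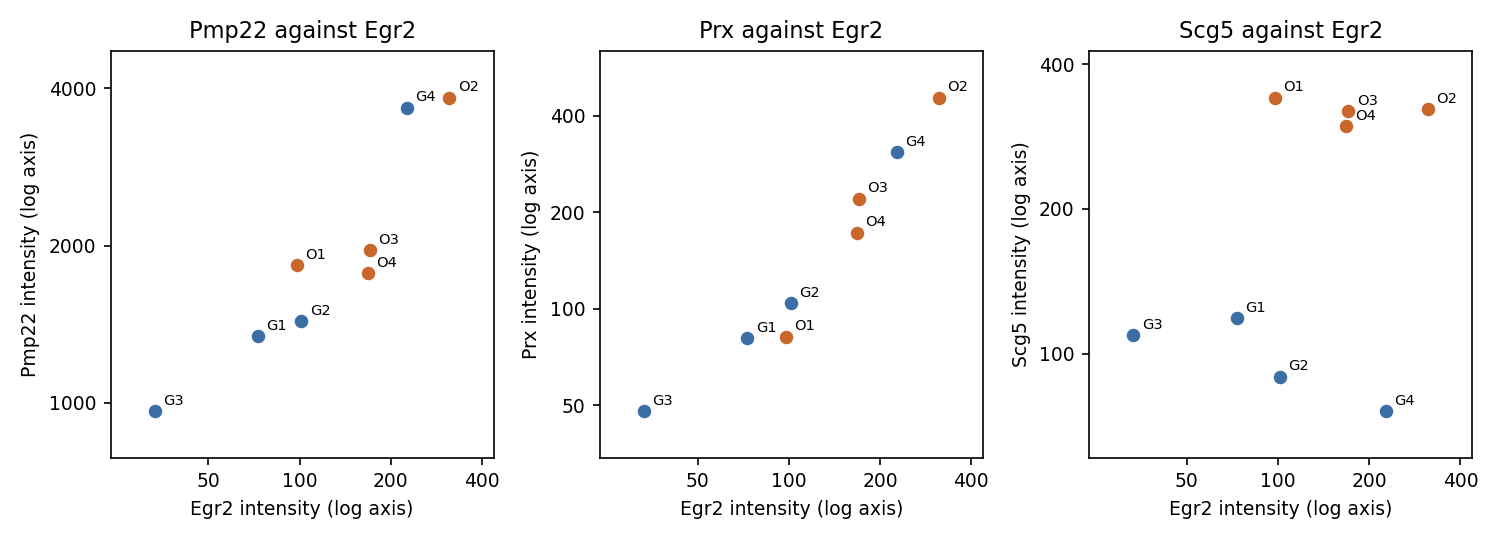
Each point is a capture (G, global layer, blue; O, orbital layer, orange; numbers as in the text), with the intensity of Egr2 on the horizontal axis and that of Pmp22, Prx or Scg5 on the vertical axis (log scales). Pmp22 and Prx rise with Egr2 from global capture 3 to orbital capture 2 across both layers, while Scg5 separates the layers at every level of Egr2.

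Other Schwann cell genes were set against the members in the same way. Of 32 listed, 23 were on the array under 1 name and 8 passed the filter, and their summed intensity was 519.7 to 1117 in the global and 922.5 to 1509 in the orbital captures. Between layers 2 rose, 0 fell and 6 did not pass, with a median of 0.14. Plekhb1, a membrane adaptor protein of neural and sensory cells, rose from 191 ± 57.2 (SD, n = 4) to 409 ± 25.5 (1.14 ± 0.20, SE; limma adjusted p = 0.00300). Mpzl1, a widely expressed relative of the myelin protein P0, rose from 54.8 ± 16.9 to 99.5 ± 12.8 (0.89 ± 0.23; limma adjusted p = 0.0334), which did not pass once any 1 of global captures 1 and 3 and orbital captures 2, 3 and 4 was left out (0.0852 to 0.0916). Prx, the periaxin of myelinating Schwann cells, differed by 0.87 ± 0.53 (adjusted p = 0.373). Sox10, the lineage factor of Schwann cells, was under the background level in 7 of 8 captures, and Gjb1 and Ngfr in 8 of 8. Erbb3, the neuregulin receptor of Schwann cells, Mal and Nfasc were under it in 2 of 8, and Cldn19 and L1cam in 1 of 8.

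Prx followed Egr2 most closely in this list. It read 81.2, 104, 48.1 and 308 in global captures 1 to 4, and 81.9, 455, 220.4 and 173 in orbital captures 1 to 4. With layer means subtracted, Prx and Egr2 gave r = 0.96 and rho = 0.95 (exact permutation p = 0.00174, the smallest possible), and 0.98 without the 2 captures farthest from the median of Egr2. Prx and Pmp22 gave r = 0.92 and rho = 0.86 (exact permutation p = 0.00694). Pllp, a plasmolipin of myelin, gave r = 0.91 and rho = 0.90 with Egr2 and r = 0.91 and rho = 0.93 with Mbp (exact permutation p = 0.00694 and 0.00868). S100b gave r = 0.92 and rho = 0.62 with Pmp22 and r = 0.78 and rho = 0.50 with Egr2 (exact permutation p = 0.0191 and 0.0382). Its r with Pmp22 was 0.31 without the 2 captures farthest from the median of Pmp22. Mag, the myelin-associated glycoprotein, gave r = 0.41 with Egr2 (exact permutation p = 0.363). Of the 8 Schwann cell genes, 4 had an r over 0.7 with Egr2, 3 with Mbp and 3 with Pmp22, against 6.84%, 6.09% and 5.85% of all genes. With Cnp, Nefm or Scg5 the count was 0, where the shares of all genes were 5.15%, 2.86% and 4.45%. At these shares 0 of 8 is no result about those 3 members. None (0) of the 282 relations of the 6 tested members with genes of 4 lists passed after adjustment (lowest adjusted p = 0.245), and 24 had an unadjusted p under 0.05. At the smallest possible p a relation alone could not pass over 282, so the lack of a call says little about any of them.

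Among genes of the neuromuscular junction and of denervation, an r over 0.7 was found for 3 of 10 with Egr2, 3 with Mbp and 2 with Pmp22 (medians 0.13, 0.21 and 0.22), against 6.84%, 6.09% and 5.85% of all genes. Chrna1, the alpha subunit of the acetylcholine receptor of muscle, read 242, 497, 195 and 562 in global captures 1 to 4, and 481, 919, 686 and 810.2 in orbital captures 1 to 4. It gave r = 0.91 and rho = 0.95 with Egr2 (exact permutation p = 0.00694) and r = 0.90 and rho = 0.90 with Mbp (exact permutation p = 0.00868), and 0.75 with Pmp22 (rho = 0.83, exact permutation p = 0.0486). Global capture 3 was lowest and global capture 4 highest in its layer, as for Mbp, Pmp22 and Egr2. The delta subunit Chrnd gave r = 0.86 and rho = 0.83 with Egr2 (exact permutation p = 0.0208). With Mbp it gave r = 0.93 and rho = 0.98 (exact permutation p = 0.00174, the smallest possible). Colq gave r = 0.84 with Egr2 and 0.87 with Pmp22 (exact permutation p = 0.0208 and 0.00521). In contrast, r with Egr2 was 0.16 for Chrnb1, 0.10 for Dok7, -0.22 for Runx1 and -0.41 for Myog. Of the 10 junction and denervation genes tested, 0 rose and 0 fell between layers (Chrna1 differed by 1.05, limma adjusted p = 0.0566). With 7.68% of all genes called in either direction, that count is no result about them.

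Immediate early genes were set against Egr2 because it belongs to them. An r over 0.7 was found for 0 of 15, where 6.84% of all genes would give about that count, so it is no result about the group (median r -0.06). Egr1, its close relative, read 179.9 to 370.4 in the global and 294 to 401 in the orbital captures, and gave r = 0.18 and rho = 0.21 with Egr2 (exact permutation p = 0.778). Fos gave r = -0.23, Nab2, a corepressor of EGR factors, 0.64, Dusp1 0.53 and Atf3 -0.61. Among 15 immediate early genes the median difference was 0.08, and 1 rose, 0 fell and 14 did not pass, about what the shares of all genes (4.09% and 3.59%) would give. The gene that rose was Atf3, a stress-induced factor (0.59 ± 0.16, SE; limma adjusted p = 0.0470), which did not pass once any 1 of global captures 1, 3 and 4 and orbital captures 1, 3 and 4 was left out (0.0559 to 0.122).

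**Figure D5:**
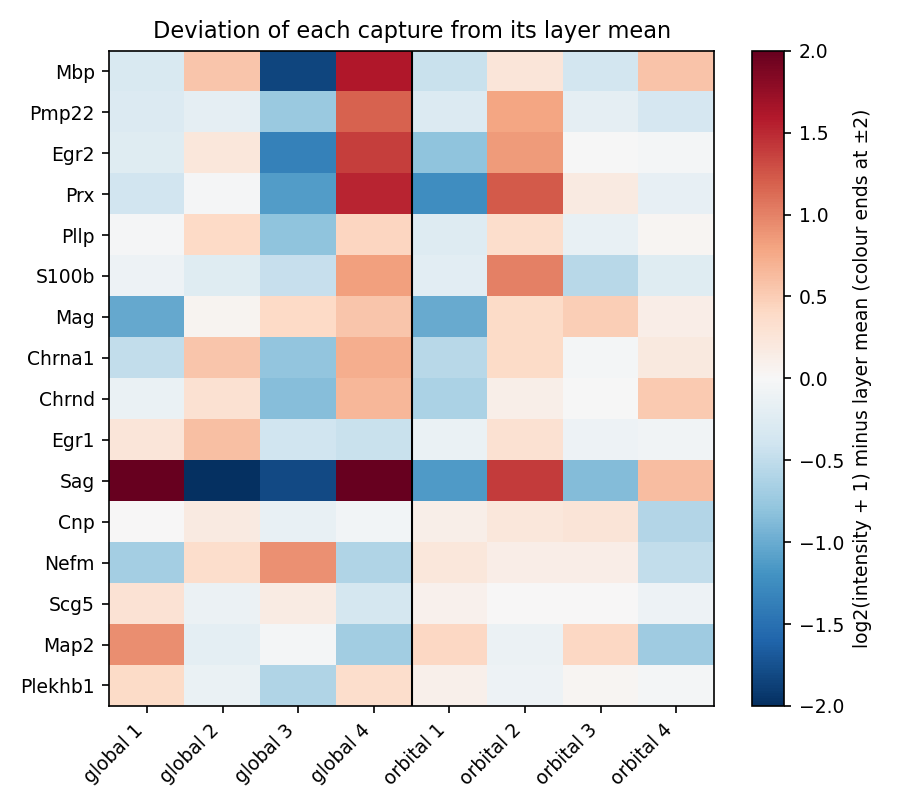
Colours show how far each capture (columns) lay from the mean of its layer in log2(intensity + 1) for 6 member genes and 10 genes named in the text (rows). Mbp, Pmp22, Egr2, Prx, Pllp and Chrna1 are low in global capture 3 and high in global capture 4, whereas Scg5 and Cnp deviate little apart from Cnp in orbital capture 4.

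Promoter sequences of the genes on which these results turn are given so that the members of each pattern can be compared. They come from RefSeq (GRCr8), where 6 of the 8 genes had an entry. Only bases before the annotated start of the gene model are printed. For Egr2, whose entry lies within a longer gene model, a 30-base stretch cut around its CArG box is printed. Capitals mark matches on either strand to GCGNGGGCG (the site of EGR factors), GGGCGG (Sp1), TATAAA (the TATA box), TGACG (the core of a cAMP response element), the core of the neuronal silencer element RE1, and the CArG box of serum response factor.
Pmp22, chr10:48294682-48294931, + strand: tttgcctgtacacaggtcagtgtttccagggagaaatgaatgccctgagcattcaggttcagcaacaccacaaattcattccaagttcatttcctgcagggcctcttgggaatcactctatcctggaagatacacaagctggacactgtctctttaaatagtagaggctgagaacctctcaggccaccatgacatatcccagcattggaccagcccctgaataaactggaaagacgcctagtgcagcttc
Cnp, chr10:86011254-86011503, + strand: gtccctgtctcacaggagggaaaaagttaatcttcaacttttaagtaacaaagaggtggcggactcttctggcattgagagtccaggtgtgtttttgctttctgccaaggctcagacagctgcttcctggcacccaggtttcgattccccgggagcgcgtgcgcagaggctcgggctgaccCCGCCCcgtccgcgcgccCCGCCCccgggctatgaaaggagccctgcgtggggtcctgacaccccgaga
Scg5, chr3:121042882-121043045, - strand: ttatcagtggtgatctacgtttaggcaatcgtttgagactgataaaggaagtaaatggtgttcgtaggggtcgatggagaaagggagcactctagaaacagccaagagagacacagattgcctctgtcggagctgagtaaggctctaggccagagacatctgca
Egr2, chr20:21054505-21054534, - strand: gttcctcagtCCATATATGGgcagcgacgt
The Cnp stretch held 2 Sp1 matches, and 33.1% of 33469 promoter windows of 300 bases hold at least 1. The Egr2 stretch was cut around a CArG box, so its presence there was fixed by that choice. Such a box is found in 1.64% of windows. The whole Egr2 window also held 1 Sp1 match, at -206, and 1 match to TGACG, at -66. The printed Pmp22 stretch held no match to any of these motifs, and neither did the rest of its window. The Scg5 stretch ends at -87 from the start and held none, but the rest of its window held 1 Sp1 match, at -44, and 2 matches to TGACG. The EGR letters were in 0 of the members' windows and in 4.98% of all windows, and the silencer core in 0 and in 0.0299%. A match is a description of letters only.

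By the rule fixed for likeness, the genes closest to each member across captures were named, with layer means subtracted, over 8 captures and 7162 other genes. For Mbp they were Pcnx1 (r = 0.98), Bcas1 (0.98), a gene known from myelinating oligodendrocytes, and Bmp2 (0.96). For Egr2 they were Arvcf (0.99), Dpp4 (0.98) and Natd1 (0.98), and for Pmp22 Coro2b (0.99), Elf1 (0.98) and Usp9x (0.96). For Cnp, whose spread within layers lay mostly in orbital capture 4, they were C9h2orf49 (0.99), Serpinf1 (0.98), a secreted factor of fibroblasts, and Polr2g (0.98). For Nefm they were Nedd4l, Stk40 and Pls1 (0.95 each), and for Scg5 Nt5m (0.96), Sumf1 (0.96) and Ap4s1 (0.96). With so many genes and 8 captures, values of this height are the top of a long list, and they are given with no test.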

How the data were processed

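Per the labels, RNA of each capture went through T7 amplification and onto an Affymetrix RAE230A array. The authors deposited 1 linear intensity per probe set and array. The summarising software is not given in the sources used here, and no detection calls were used. Trimmed means (2%) of the 8 arrays differed by 0.00389%, so values were used as deposited.

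Layers were taken from the labels, with captures numbered in accession order. After leaving 57 controls aside from 15923 probe sets, the 9520 with a mean log2 value at or above the 40th percentile (intensity 39.4) entered the test. It was limma 3.58.1 (R 4.3.3), lmFit and eBayes with trend on log2(intensity + 1), with Benjamini-Hochberg adjustment over all tested. Fold changes are on this scale. A gene was taken by its brightest probe set. Background was the highest of 27 Bacillus control probe sets of an array. In the platform's annotation 12783 probe sets carried 1 symbol, 312 several and 2771 no symbol. Members below the filter were fitted without it. Named genes were the members, up to 4 passing genes with the smallest p in each list, and 3 most alike per member. Chat, Slc18a3, Nefh, Pcsk2, Chga, Sox10, Gjb1, Ngfr, Cpe, Pam, Penk, Gap43, Scg3, Chgb, Vip, Scg2, Tubb3, Th, Erbb3, Mal, Nfasc, Cldn19, L1cam, Prx, Pllp, Mag, Chrna1, Chrnd, Colq, Chrnb1, Dok7, Runx1, Myog, Egr1, Fos, Nab2, Dusp1, Gnb1, Cryab and Sag lie outside that rule and were picked with their values in view. The same holds for S100b, Guca1b, Pde6g, Unc119 and Pcp2. The members and 14 lists were chosen with earlier results of these data known. On simulated data (200 of 9520 probe sets changed, 4 against 4), 79% of the changes of 1 (log2) and 96% of those of 2 were found, with 6 false calls. The simulated noise was normal and independent between captures, so these rates do not cover captures that share an animal or stand far from the others.

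Title prefixes divide the captures, but the labels do not say what they are. Deviations of captures with the same prefix, 1 in each layer, correlated with r of -0.0055 to 0.11, against -0.13 to 0.045 for different prefixes. The ranges overlap, but captures of the same prefix mostly had the higher r. Since its meaning is unknown, the prefix was used as an alternative block only. Other alternatives were normalization, pseudocount, filter, eBayes settings, array weights, averaging orbital captures 3 and 4 (of near-identical title), each prefix alone and leaving out captures.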

Additional observations from a re-analysis of the deposited data

Results flagged for a closer look

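In 4 of 14 groups (7 tested member probe sets in 2 layers) 1 capture stood far from the other 3 on the log2 scale, where chance gives this in about 5% of groups. The gap to the nearest capture was 0.867 of the whole range for Pmp22 1370247_a_at in orbital capture 2 (high), 0.850 for Pmp22 1370504_a_at in orbital capture 4 (low), 0.837 for Cnp 1387897_at in orbital capture 4 (low) and 0.868 for Nefm in orbital capture 4 (low). The groups share captures, so the flags are not independent. The layer difference did not differ between title prefixes for any of the 7 member probe sets tested by an interaction term in limma (adjusted p = 1 for each, 0 of 9520 probe sets called).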

How the results depend on the processing

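The count of member genes higher in the orbital layer was 3, and it was 1 with the captures of either title prefix alone, 1 to 3 on leaving out each capture in turn, and 1 without global capture 4 and orbital capture 2, an alternative added after seeing the data. The gene that stayed was Scg5. The count of lower genes was 0 in all 24 alternatives run. The 705 probe sets called over the whole array became 106 and 166 within the prefixes and 468 to 726 on leaving out a capture (468 without global capture 3). With the prefix as a fixed replicate block the count was 745 with 3 members higher, and as a random one 651 with 3. Among the genes named, the block ended 1 call, that of Atf3 (adjusted p = 0.0542). Pmp22 turned sign within the second prefix at both probe sets (-0.015 and -0.18). The Nefm call was lost in 11 of 23 alternatives and the Cnp call in 4 of 23, while that of Scg5 was lost in 0. The number of correlated pairs was 0 with layer means subtracted and 2 with them left in, and 0 under the other alternatives. The change to 2 includes the difference between layers and a permutation of all captures, which can reach a smaller p. The 6 member probe sets below the filter were not run under alternatives. No detection calls were used, and signal near the control probe sets limits Nefl, Uchl1 and the second probe sets of Mbp, Cnp and Egr2.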

Other observations

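Cnp had its own companions, but most of its spread within layers came from orbital capture 4. Cnp read 188.6 there, against 308.5 to 339.6 in the other orbital captures and 143.4 to 180.6 in the global ones. With layer means subtracted, 10 of 37 extracellular matrix and fibroblast genes had an r over 0.7 with Cnp across the 8 captures (median 0.50), where 5.15% of all genes did. For the 8 Schwann cell genes the count with Cnp was 0, which at that share is no result. Of the 37 matrix genes, 5 had such an r with Egr2, 6 each with Mbp and Pmp22, 1 with Nefm and 3 with Scg5. The shares of all genes were 6.84%, 6.09%, 5.85%, 2.86% and 4.45%. Between layers 5 of the 37 matrix genes rose and 0 fell, with a median of 0.47, and their summed intensity was 12122 to 17036 in the global and 15877 to 21148 in the orbital captures. The 4 with the smallest p were the thrombospondin gene Thbs4 (1.83, limma adjusted p = 0.0104), the fibulins Fbln2 (0.83, 0.0276) and Fbln1 (0.70, 0.0412), and Igfbp7 (0.58, 0.0450). Among orbital captures, Thbs4, Fbln2 and Fbln1 were also lowest in capture 4, and Igfbp7 was not. The r values with Cnp may thus rest largely on that capture, and the count without it was not tested. The part of these cells in the Cnp difference was not tested either.

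Genes of perineurium and endoneurium, the sheaths of a nerve, gave 0 calls among 10 tested (0.15 median), as did 3 ubiquitin hydrolase genes (-0.20) and 14 genes of macrophages, mast cells and blood (0.02). Over all genes 4.09% rose and 3.59% fell, so these counts of 0 are no result about the groups. Of 15 endothelial genes (median 0.23) 1 rose, Eng, the endoglin of vessel walls (1.29, limma adjusted p = 0.0193). Of 12 smooth muscle and pericyte genes (-0.16) 2 fell, the smooth muscle myosin Myh11 (-1.39, limma adjusted p = 0.00267) and phospholamban Pln (-1.08, 0.0158). Of 6 adipocyte genes (-0.76) Lpl, lipoprotein lipase, rose (0.78, limma adjusted p = 0.0406) and Plin4, a lipid droplet protein, fell (-1.18, 0.0459). Of 19 skeletal muscle genes (-0.43) 1 rose and 5 fell. Myoglobin, Mb, was the one that rose (0.82, limma adjusted p = 0.00290), and Casq1 (-0.82, 0.00409), Ttn (-0.70, 0.00980) and Pygm (-1.16, 0.0168) led those that fell.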
